A study of Zea mays and Oryza sativa with 119 samples.

Results

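The comparison described here sets section 4 of the third maize leaf against section 3, its neighbour. Its members are 9 of the 119 RNA-seq samples of the series: replicates 1, 2, 3, 4 and 6 of section 4 and replicates 1, 2, 3 and 4 of section 3. Replicate 6 of section 3 was left out by the rule that chose the members, because its library is very shallow. The values are FPKM, fragments scaled to transcript length and to the mapped fragments of the library, and genes with a mean of at least 1 FPKM over the 9 libraries were tested on the log2(FPKM + 1) scale.

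The series follows maize, a grass with C4 photosynthesis, and rice, a grass without it, along the leaf, and its title names C4 differentiation as the question. Both groups compared here are seedlings of the inbred line B73 at 9 days, for which the labels name no treatment or transgene, and every library was made from polyadenylated RNA of a 1 cm leaf segment. A replicate is a pool of 7 plants on average, and pools were collected on different dates. The labels used here number the maize sections 1 to 4 and 6 to 16 and do not say at which end of the leaf section 1 lies.

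A grass leaf grows from its base, so that cells divide near the base, then elongate, and then build the walls, cuticle and chloroplasts of the mature blade, and cells nearer the tip are older. In C4 leaves, mesophyll cells fix bicarbonate with PEP carboxylase, and the C4 acids made there move to bundle sheath cells, where carbon dioxide is released beside Rubisco. Neighbouring pieces of such a leaf can therefore differ in developmental age and in their mix of cell types, and the part of either in the changes below was not tested. In whole-tissue RNA such as this, fewer cells of a type and less RNA of a gene per cell cannot be told apart.

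The deposited table held 110005 maize features, of which 71419 were at 0 in all 9 libraries and 23478 were tested. FPKM sums ran from 984275 to 1199820, and the share of tested genes at 0 ran from 3.52% to 11.8%, highest in section 3 replicate 4, whose relative depth, a rough estimate from the steps of low values, was the lowest of the 9 at 0.354. The library left out had 41.9% of the tested genes at 0 and a relative depth of 0.0625. Its profile was closest to section 8 (r = 0.810), against r = 0.705 with section 3, and the part of depth in this was not tested. Across genes, the profiles of 2 libraries of 1 section correlated at a median r of 0.897 (0.860 to 0.913), and those of different sections at 0.863 (0.814 to 0.882). All 7 genes listed for light-harvesting proteins, the markers of green leaf tissue used here, were detected, at summed levels of 17246 to 21254 FPKM in section 3 and 26501 to 30816 in section 4.

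Replicates 6 and 1 stood apart. The profile of section 4 replicate 6 was closer to section 6 (r = 0.936) than to the other libraries of section 4 (r = 0.929), while each of the other 8 libraries was closest to its own section. This library was the lowest of its section for 62.1% of the genes called lower and for 48.4% of all tested genes. It was the highest for 29.3% of the genes called higher, against 9.09% of all tested genes, and the lowest for 44.2% of the genes called higher. Section 3 replicate 1 was the highest of its section for 32.4% of the genes called higher, against 21.5% of all tested genes. Several C4 genes were in that library closer to section 4 than in the other section 3 libraries. Section 3 replicate 4, of the lowest relative depth, was the highest of its section for 46.8% of the genes called lower. The same held for 34.4% of all tested genes. Calls and list counts named below that changed without section 4 replicate 6 are given both ways.

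A gene was called higher or lower in section 4 at a Benjamini-Hochberg adjusted p under 0.05 from limma and a log2 change of at least 1 in size. Of the tested genes, 781 were called higher (3.33%) and 802 lower (3.42%), together 6.74%. Without section 4 replicate 6 the counts were 818 and 650, of which 672 and 627 were among the genes called with it. The log2 change of all tested genes had a median of 0.05 and ran from -1.03 at the 5th percentile to 1.14 at the 95th. The sections did not overlap for 2232 genes that were higher in section 4 (9.51%) and for 1997 that were lower (8.51%). A change of at least 2 on the log2 scale was found for 123 of the genes called higher and 159 of those called lower.

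**Figure D1:**
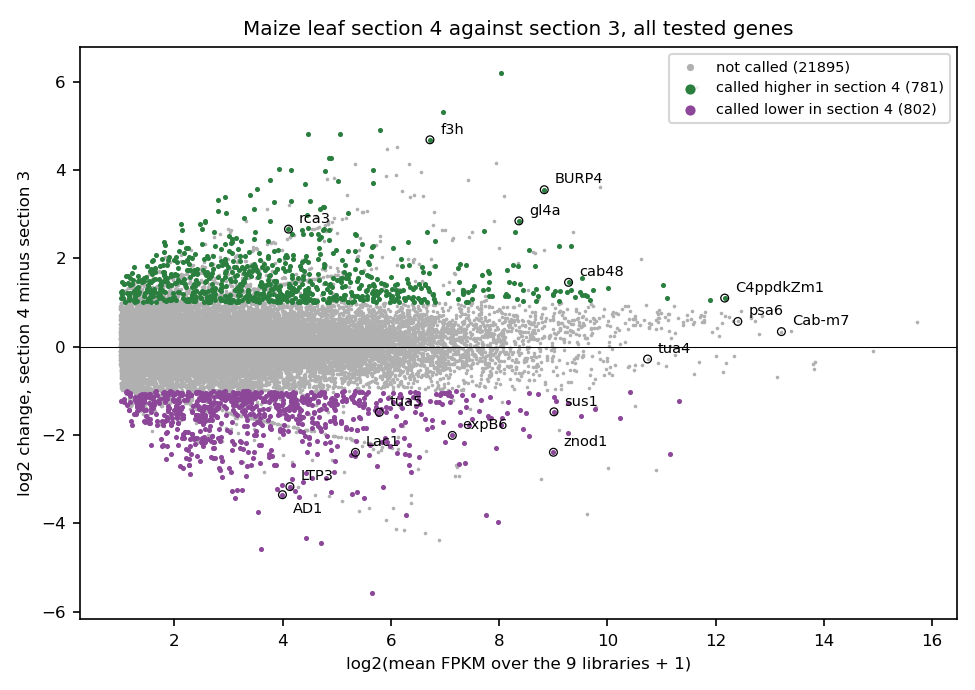
Log2 change of every tested gene (section 4 minus section 3) against its mean level over the 9 libraries, as log2(mean FPKM + 1); green and purple points are the 781 genes called higher and the 802 called lower, and open circles mark genes named in the text. Of the abundant photosynthesis genes circled, Cab-m7 lies at a log2 change of 0.34, psa6 at 0.57 and C4ppdkZm1 at 1.1, and the widest changes among the circled genes were f3h (4.68) and AD1 (-3.35).

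The tested genes included members of 30 gene lists, read here against those background shares. The lists with the highest medians were the C4 cycle (median log2 change 0.78), light-harvesting proteins (0.64), the Calvin-Benson cycle with Rubisco (0.62) and photosystem subunits (0.60), against 0.05 for all genes. The lowest medians were those of tubulins and actins (-0.64), wall loosening (-0.64), the epidermis and wax list (-0.63) and histones (-0.48). Each of these 8 medians kept its sign under upper quartile scaling, under quantile normalization and without section 4 replicate 6. Quantile normalization lowered the light-harvesting median to 0.41 and the Rubisco and Calvin-Benson median to 0.37, below that of nitrogen assimilation (0.42). The epidermis, secondary wall, aquaporin, flavonoid, jasmonate, and sucrose and starch lists held calls in both directions.

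**Figure D2:**
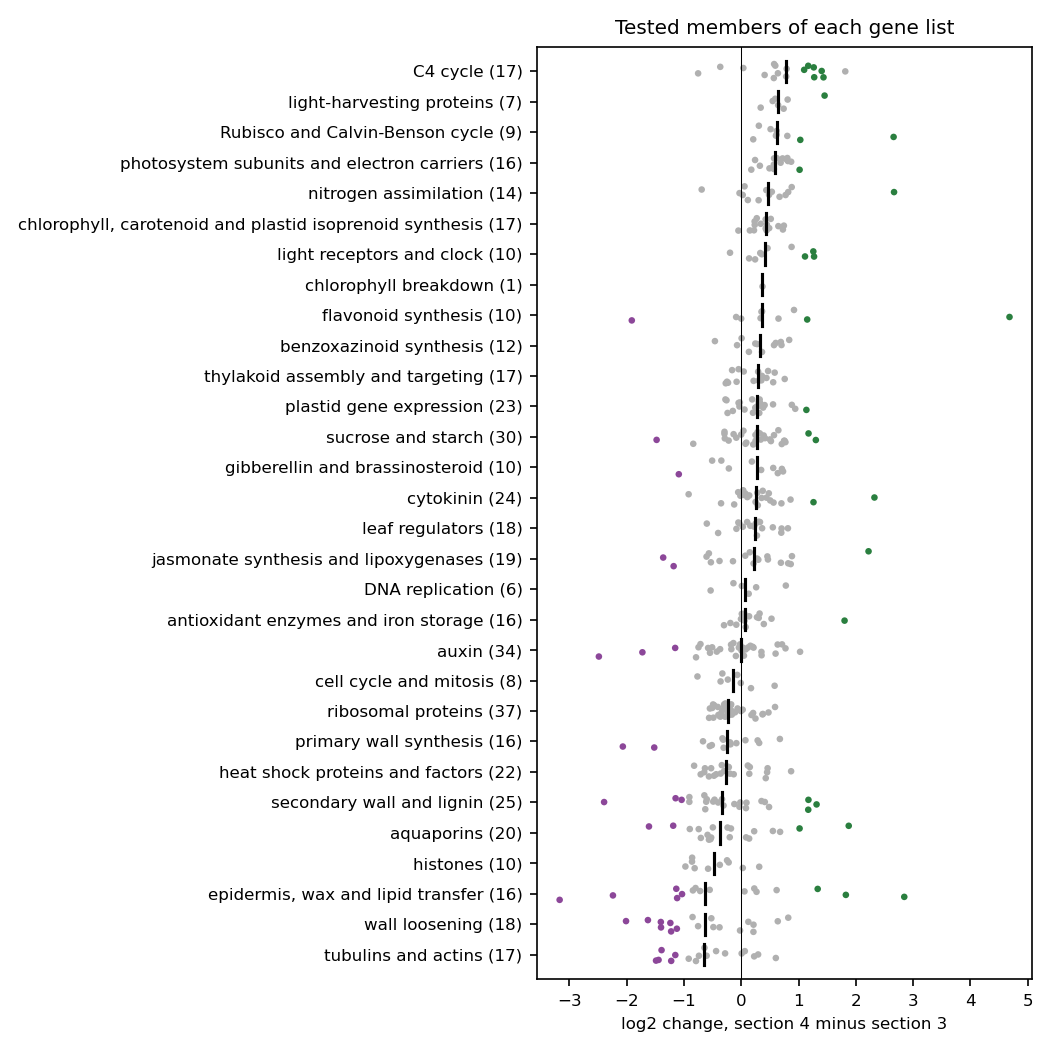
Log2 change (section 4 minus section 3) of the tested members of 30 gene lists, ordered by their median (black bar), with the number tested in brackets; green points were called higher, purple points lower and grey points neither. The C4 cycle list has 6 of 17 members called higher and wall loosening has 7 of 18 called lower. The epidermis list has 3 called higher and 5 called lower. Of all tested genes 3.33% were called higher and 3.42% lower.

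In the C4 cycle list, 6 of 17 tested members were called higher in section 4 and none lower, against 3.33% and 3.42% of all genes. The sections did not overlap for 12 members that were higher, against 9.51% of all genes. Pep1 (GRMZM2G083841), the PEP carboxylase of mesophyll cells, was at 596, 388, 383 and 394 FPKM in section 3 (replicates 1 to 4) and at 1005, 836, 938, 909.8 and 1220.3 in section 4 (replicates 1 to 4 and 6). Its mean rose from 440.2 ± 104 (SD, n = 4) to 982 ± 146 (SD, n = 5), which is 1.17 ± 0.16 (SE) on the log2 scale (limma adjusted p = 0.00105). Every section 4 library was above every section 3 library, of which replicate 1 was the highest. ME1 (GRMZM2G085019), which decarboxylates malate beside Rubisco in bundle sheath chloroplasts as the NADP-malic enzyme, was at 507, 252, 255 and 247 FPKM in section 3 and at 734, 577, 626, 609 and 1215 in section 4, a log2 change of 1.27 ± 0.27 (limma adjusted p = 0.0119). Replicate 1 held about as much ME1 in section 3 as the lower libraries of section 4, and replicate 6 of section 4 was the highest by a wide margin. Without that library ME1 still rose by 1.08 on the log2 scale (limma adjusted p = 0.0134).

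C4ppdkZm1 (GRMZM2G306345), the pyruvate phosphate dikinase that regenerates PEP, was the most abundant member, at 2842 ± 756 FPKM in section 3 and 6003 ± 937 in section 4 (SD, n = 4 and 5), a log2 change of 1.1 ± 0.17 (limma adjusted p = 0.002). Its reads could be shared with those of CYPPDKZM2 (GRMZM2G097457), a related gene that went from 45.2 ± 16.8 to 90.4 ± 24.1 FPKM. Quantile normalization, which sets all libraries to 1 distribution, lowered the change of pep1 to 0.99 and that of C4ppdkZm1 to 0.63, below the size asked of a call, and left 4 members of the list called higher. The other 3 members called higher have no name in the reference table. They are GRMZM2G138258 (157 ± 44.6 to 429 ± 144 FPKM, log2 change 1.44), GRMZM2G121878 (1093 ± 228 to 2899.9 ± 638, 1.40) and GRMZM2G348512 (194 ± 69.6 to 465 ± 139, 1.27).

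Members below the size asked of a call included chloroplast enzymes and carriers with narrow spreads. The chloroplast malate dehydrogenase mdh6 (GRMZM2G129513) was at 156 to 196 FPKM in section 3 and 264 to 339.7 in section 4, a log2 change of 0.78 ± 0.11 (limma adjusted p = 0.00111). POMT1 (GRMZM2G383088), a 2-oxoglutarate/malate carrier of the chloroplast envelope, was at 274 ± 9.3 and 477 ± 36.5 FPKM (0.79 ± 0.08, limma adjusted p = 3.32e-04). The dicarboxylate carriers pDCT2 (GRMZM2G086258) and pDCT1 (GRMZM2G040933) changed by 0.64 and 0.41 on the log2 scale. In all 3 of mdh6, pOMT1 and pDCT2 every section 4 library was above every section 3 library. GRMZM2G094165, GRMZM2G174107 and GRMZM2G070605 changed by 0.57, 0.57 and 0.60.

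GRMZM2G001696 showed how unevenly replicates were spread. Its level was 208, 3.08, 7.22 and 10.7 FPKM in section 3 and 96.3, 18.1, 18.5, 34.5 and 586 in section 4. Replicate 1 of section 3 and replicate 6 of section 4 held many times the level of their neighbours, the sections overlapped, and the log2 change of 1.82 ± 1.28 did not pass the test (limma adjusted p = 0.403). GRMZM2G094712 was the 1 member that was lower in every section 4 library than in every section 3 library, at 29.2 ± 10.3 and 16.4 ± 2.41 FPKM. Its log2 change of -0.75 ± 0.21 (limma adjusted p = 0.0374) was below the size of a call. GRMZM2G146677 was at 9.47 ± 1.85 and 9.75 ± 1.71 FPKM and alt (GRMZM2G088064) at 2.26 ± 2.98 and 1.05 ± 0.698.

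The markers of mesophyll and bundle sheath cells used here are themselves photosynthesis genes. All 5 mesophyll markers and 2 of the 5 bundle sheath markers are members of the C4 list and the other 3 of the Rubisco and Calvin-Benson list, so their sums restate the values of those lists. The 5 mesophyll markers summed to 4216 to 6463 FPKM in section 3 and to 9258 to 10781 in section 4 replicates 1 to 4, with 13519.5 in replicate 6, and 3 of the 5 were called higher. The 5 bundle sheath markers summed to 3661 to 4936 FPKM and to 5875 to 6084, with 8517 in replicate 6, and 2 of the 5 were called higher. No marker of either cell type was at 0 in all 9 libraries. The part of cell type shares in the changes of C4 genes was not tested.

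**Figure D3:**
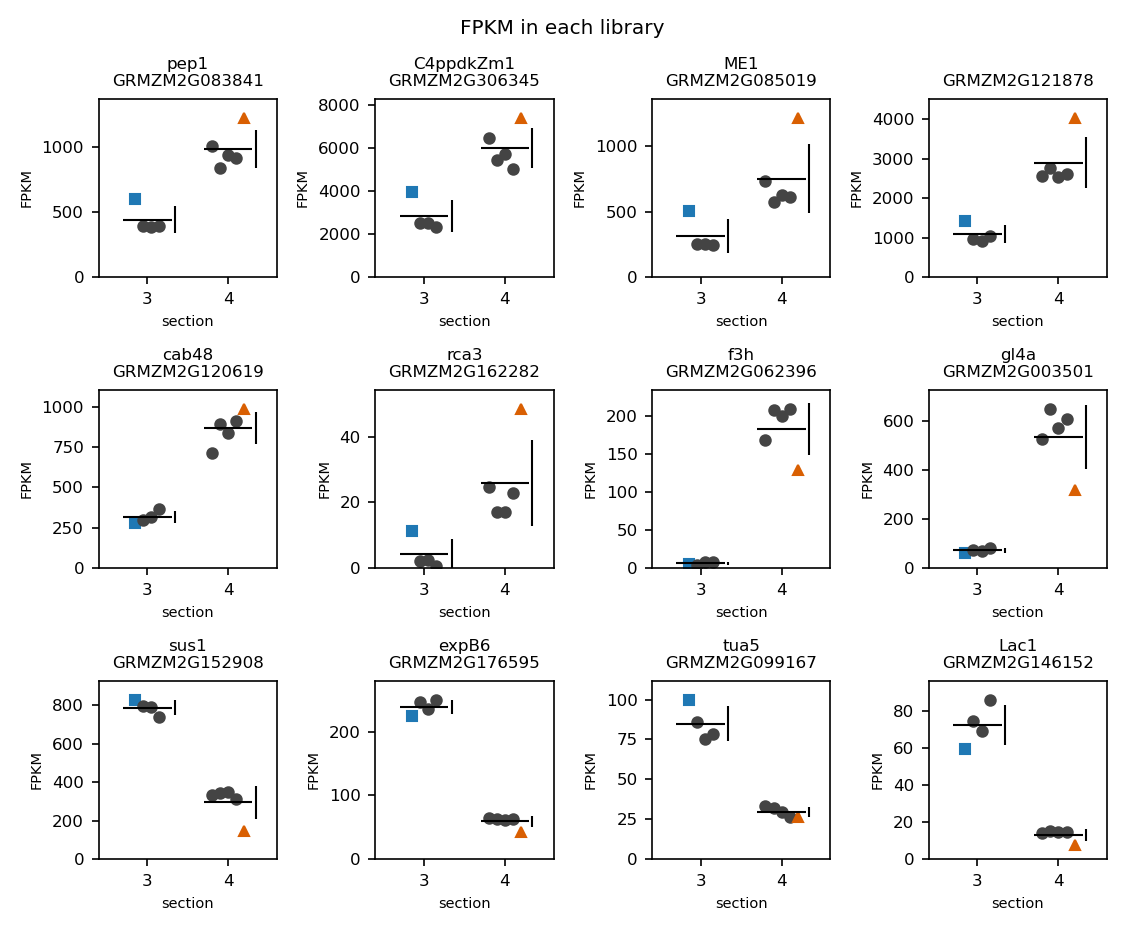
FPKM of 12 genes in each of the 9 libraries, by section; horizontal lines are section means, vertical bars the mean ± 1 SD (cut at 0), blue squares replicate 1 of section 3 and orange triangles replicate 6 of section 4. Sections do not overlap for any of the 12 genes, replicate 1 of section 3 is the highest of its section for pep1 (596 FPKM) and ME1 (507), and replicate 6 of section 4 is the lowest of its section for sus1 (144), gl4a (319) and f3h (129).

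Photosynthesis genes outside the C4 cycle were mostly higher in section 4 as well. All 9 tested members of the Rubisco and Calvin-Benson list had positive log2 changes and 2 were called higher, against 3.33% of all genes. Rca3 (GRMZM2G162282), named as a Rubisco activase, was at 11.1, 2.28, 2.42 and 0.775 FPKM in section 3 and 24.5, 16.9, 17, 22.7 and 48.4 in section 4, a log2 change of 2.66 ± 0.51 (limma adjusted p = 0.00685). RA (GRMZM2G162200), also a Rubisco activase by name, was far more abundant and was below the size of a call, with 1039 ± 40.9 and 1599.9 ± 133 FPKM and a log2 change of 0.62 ± 0.08. GRMZM2G162529 was called higher (219 ± 68.6 to 450.4 ± 151 FPKM, 1.03), but not without section 4 replicate 6 (0.85), nor with the replicate number as a block (0.85) or after quantile normalization (0.90). The Rubisco small subunit gene rbcS (GRMZM2G098520) went from 2742 ± 253 to 4179 ± 457 FPKM, a log2 change of 0.61 ± 0.10, which quantile normalization lowered to 0.18 (limma adjusted p = 0.156).

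The sections did not overlap, and section 4 was higher, for all 7 light-harvesting genes and 13 of 16 photosystem and electron transport genes. This held for 9.51% of all tested genes, but only 1 gene of each list reached the size of a call. Cab48 (GRMZM2G120619), a chlorophyll a/b-binding protein, was at 278, 299, 318 and 366 FPKM in section 3 and 713, 891, 835, 909.7 and 985 in section 4, a log2 change of 1.46 ± 0.12 (limma adjusted p = 8.32e-05). Cab-m7 (GRMZM2G402936) was the most abundant gene of the list, at 8287 ± 778 FPKM, and had its smallest change, 0.34 ± 0.08. PGR5 (GRMZM2G121494), of cyclic electron flow around photosystem I, went from 109.6 ± 28.4 to 221 ± 38.6 FPKM (1.02 ± 0.18, limma adjusted p = 0.00455). Its change was 0.93 without section 4 replicate 6 and with the replicate block, just under the size of a call. The photosystem I gene psa6 (GRMZM2G012397) went from 4283 ± 300.0 to 6366 ± 597 FPKM, a change of 0.57. After quantile normalization the change of psa6 was 0.20 (limma adjusted p = 0.138) and that of Cab-m7 was 0.18.

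Among 23 plastid gene expression genes 1 was called higher, near the share of 3.33% of all genes. This was sig3 (GRMZM5G830932), a sigma factor of the plastid RNA polymerase, which went from 12.2 ± 1.33 to 28.0 ± 2.78 FPKM (1.14 ± 0.13, limma adjusted p = 4.11e-04). PRIN2 (GRMZM2G119906), the most abundant of that list, was at 416 ± 25.9 and 356 ± 56.2 FPKM and was not called. None of 17 genes for chlorophyll, carotenoid and plastid isoprenoid synthesis and none of 17 for thylakoid assembly was called, against 6.74% of all genes. The medians of these 2 lists were 0.43 and 0.30. Oy1 (GRMZM2G419806), a magnesium chelatase subunit, was at 744 ± 43.8 and 899 ± 75.9 FPKM, and TAB2 (GRMZM2G081955) at 244 ± 8.67 and 312 ± 29.5. Lls1 (GRMZM2G339563), the pheophorbide a oxygenase of chlorophyll breakdown, was at 8.46 ± 1.5 and 11.1 ± 1.15 FPKM.

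Several genes of cell expansion fell. Of 18 tested wall loosening genes 7 were called lower and none higher, against 3.42% of all genes, and 5 had positive log2 changes. Of the 7 called, 5 were beta-expansins, proteins that loosen grass cell walls. ExpB6 (GRMZM2G176595) was at 226, 246, 237 and 250.2 FPKM in section 3 and 64.7, 63.2, 62.0, 63.8 and 43.0 in section 4, a log2 change of -2.01 ± 0.13 (limma adjusted p = 4.08e-05). The section 3 libraries lay close together and far above all of section 4. ExpB4 (GRMZM2G154178) fell from 155 ± 8.57 to 51.6 ± 14.9 FPKM (-1.63), expB8 (GRMZM2G013002) from 71.6 ± 4.66 to 26.7 ± 4.33 (-1.40) and expB2 (GRMZM2G021621) from 15.7 ± 2.7 to 5.36 ± 1.19 (-1.40). ExpB3 (GRMZM2G474194) went from 8.77 ± 0.945 to 3.83 ± 2.05 FPKM and was not called without section 4 replicate 6. The endoglucanases Cel3 (GRMZM2G154678) and Cel26 (GRMZM2G125991) were the other 2, at -1.22 and -1.24. Other members did not fall: exg1 (GRMZM2G147687), the most abundant, was at 413 ± 39.2 and 487 ± 93.8 FPKM, and the alpha-expansin gene expa1 (GRMZM2G339122) at 96.5 and 95.7.

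Of 17 tested cytoskeleton genes 5 were called lower and none higher, against 3.42% and 3.33% of all genes. Tua5 (GRMZM2G099167), an alpha-tubulin, was at 99.8, 86.0, 75.4 and 78.1 FPKM in section 3 and 33.3, 31.7, 29.8, 26.6 and 26.4 in section 4 (-1.49 ± 0.12, limma adjusted p = 9.78e-05). Tua6 (GRMZM2G083243) fell from 78.2 ± 9.3 to 29.1 ± 9.12 FPKM (-1.44). The beta-tubulins tub4 (GRMZM2G066191) and tub6 (GRMZM2G071790) fell by 1.39 and 1.22 on the log2 scale, and an actin (Actin-7, GRMZM2G082484) by 1.15. With the replicate block the actin was not called (limma adjusted p = 0.088). The most abundant tubulin, tua4 (GRMZM2G152466), was at 1758 to 1964 FPKM in section 3 and at 1506 to 1876 in section 4 replicates 1 to 4, with 900.4 in replicate 6, and its change of -0.28 ± 0.20 did not pass. Tubulin genes are near copies of each other, and how the counting divided shared reads is not given in the sources used here.

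Of 16 primary wall genes 2 were called lower, against 3.42% of all genes. Bk2L7 (GRMZM2G167497), of the COBRA-like family that takes part in cellulose deposition, was at 87.0, 102, 105 and 109 FPKM in section 3 and at 21.2, 32.4, 27.8, 29.9 and 11.6 in section 4 (-2.07 ± 0.26, limma adjusted p = 8.47e-04). RGP (GRMZM2G073725), a reversibly glycosylated polypeptide of wall polysaccharide synthesis, fell from 146 ± 5.36 to 51.3 ± 9.87 FPKM (-1.52). The primary wall cellulose synthase with the highest level, CesA-7 (GRMZM2G025231), was at 205 ± 24.0 and 252 ± 41.4 FPKM and was not called.

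Secondary wall and lignin genes went both ways, with 3 of 25 called higher and 3 lower, against 3.33% and 3.42% of all genes. The list median was -0.33, or -0.17 without section 4 replicate 6. The laccases, which oxidise lignin precursors in the wall, were split. Lac1 (GRMZM2G146152) fell from 59.8, 75, 69.4 and 86.2 FPKM in section 3 to 14.1, 15.2, 14.7, 14.9 and 7.46 in section 4 (-2.39 ± 0.21, limma adjusted p = 1.29e-04). A gene named Laccase-13 (GRMZM2G132169) rose from 239, 294, 300.0 and 319 FPKM to 709.7, 814, 779, 797 and 317 (1.17 ± 0.26, limma adjusted p = 0.0148). Replicate 6 of section 4 was here at the level of section 3, and without it the change was 1.43. Another gene of that name (GRMZM5G814718) fell from 10.0 ± 2.92 to 3.97 ± 1.09 FPKM (-1.15), and a further laccase in capitals, LAC1 (GRMZM5G842071), went from 7.93 ± 1.67 to 20.2 ± 10.0 FPKM (1.17).

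CesA12 (GRMZM2G142898), a secondary wall cellulose synthase, was at 124 ± 9.65 FPKM in section 3 and 62.2 ± 17.4 in section 4, a log2 change of -1.04 ± 0.23 (limma adjusted p = 0.0144). Its partner in the list, cesa10 (GRMZM2G445905), went from 283 to 155 FPKM, a change of -0.91 that missed the size of a call. CCR (GRMZM2G131205), a cinnamoyl-CoA reductase of lignin synthesis, rose from 123 ± 30.5 to 300.1 ± 10.0 FPKM (1.32 ± 0.17, limma adjusted p = 7.71e-04). PAL1 (GRMZM2G074604), the phenylalanine ammonia-lyase at the entry of the pathway, was at 1071 ± 125 and 873 ± 219 FPKM and was not called. Without section 4 replicate 6 the list had 2 members called higher and 1 lower, and with the replicate block the counts were likewise 2 and 1. CesA12, GRMZM5G814718 and LAC1 were the members that lost the call without that library, at changes of -0.82, -0.99 and 0.93. The 17 secondary wall cellulose synthase and laccase markers summed to 1021 to 1308 FPKM in section 3. In section 4 they summed to 1321 to 1473 in replicates 1 to 4, against 642 in replicate 6. Of the 10 tested, 2 were called higher and 3 lower. Much of these sums was the rising Laccase-13 (GRMZM2G132169), at 239 to 319 FPKM in section 3 and 709.7 to 814 in section 4 replicates 1 to 4. Of the 17 markers 2 were at 0 in all 9 libraries.

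The epidermis list split, with 3 of 16 tested genes called higher and 5 lower, against 3.33% and 3.42% of all genes. Those called higher were genes of wax synthesis and lipid transfer. Those called lower were another lipid transfer gene and 4 genes named as regulators. Gl4a (GRMZM2G003501), a ketoacyl-CoA synthase that elongates the fatty acids of leaf wax, was at 61.0, 72.6, 70.9 and 82.5 FPKM in section 3 and at 525, 648, 571, 608 and 319 in section 4. It rose by 2.85 ± 0.20 on the log2 scale (limma adjusted p = 4.72e-05), and even its lowest section 4 library was well above all of section 3. Gl1 (GRMZM2G114642), a wax gene needed for a normal leaf surface, rose from 164 ± 14.4 to 598 ± 135 FPKM (1.83 ± 0.19, limma adjusted p = 2.85e-04). Plt1 (GRMZM2G101958), a lipid transfer protein, rose from 557 ± 64.0 to 1412 ± 200.4 FPKM (1.33 ± 0.12).

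Another lipid transfer gene, LTP3 (GRMZM2G126397), fell from 54.0, 26.0, 27.2 and 26.4 FPKM to 1.21, 6.62, 3.98, 1.62 and 1.92 (-3.17 ± 0.38, limma adjusted p = 5.97e-04). HDZIV14_OCL14 (GRMZM2G145690), of the homeodomain family whose members act in the outer cell layer, fell from 5.06 ± 0.798 to 0.301 ± 0.298 FPKM (-2.24). Ocl1 (GRMZM2G026643), of the same family, fell from 25.4 ± 1.39 to 11.3 ± 2.08 FPKM (-1.12). Gl15 (GRMZM2G160730), an AP2-type factor that maintains juvenile epidermal traits, went from 14.5 ± 2.09 to 6.76 ± 1.96 FPKM (-1.03), and EREB46 (GRMZM2G085678) from 2.48 ± 1.36 to 0.539 ± 0.314 (-1.13). Without section 4 replicate 6 the last 2 were not called, at -0.88 and -0.98, which left 3 members called lower and the same number called higher.

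Flavonoid genes held the widest rise among named genes. F3h (GRMZM2G062396), flavanone 3-hydroxylase, was at 4.79, 4.68, 7.87 and 7.49 FPKM in section 3 and at 168, 208, 201, 209 and 129 in section 4, a log2 change of 4.68 ± 0.20 (limma adjusted p = 6.11e-06). The sections were far apart, and replicate 6 was the lowest of section 4. C2 (GRMZM2G422750), the chalcone synthase that opens the pathway, rose from 163 ± 24.8 to 362 ± 38.6 FPKM (1.15 ± 0.13, limma adjusted p = 3.92e-04). BZ1 (GRMZM2G165390), the glucosyltransferase of the last step of anthocyanin synthesis, fell from 42.6 ± 7.52 to 11.1 ± 4.28 FPKM (-1.91 ± 0.27, limma adjusted p = 0.00133). The list had 10 tested members, of which these 3 were called, against 6.74% of all genes. Without section 4 replicate 6, and with the replicate block, CHI (GRMZM2G155329), named for chalcone isomerase, was called higher too, at 1.03 on the log2 scale.

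Nitrogen and sugar metabolism each held calls at a share not far from the 6.74% of all genes. Asn2 (GRMZM2G093175), an asparagine synthetase, was at 0.177, 0.544, 0.933 and 0 FPKM in section 3 and at 9.56, 10.2, 9.4, 7.51 and 3.77 in section 4 (2.67 ± 0.30, limma adjusted p = 4.52e-04). It was nearly absent from section 3 and was the only call among 14 nitrogen genes. By the adjusted p of limma alone, whatever the size of the change, 7 of the 14 passed, 6 of them higher and 1 lower. The cytosolic glutamine synthetase gln1-3 (GRMZM5G872068), the most abundant of the list, was at 252 ± 28.6 and 274 ± 34.9 FPKM. Of 30 sucrose and starch genes 2 were called higher and 1 lower. Sus1 (GRMZM2G152908), a sucrose synthase that feeds wall and starch synthesis in growing tissue, was at 828, 796, 793 and 738 FPKM in section 3 and at 332, 345, 349, 312 and 144 in section 4 (-1.48 ± 0.24, limma adjusted p = 0.00299). Sut1 (GRMZM2G034302), the sucrose transporter of phloem loading, rose from 30.9 ± 11.4 to 69.6 ± 17.4 FPKM (1.18 ± 0.23), and the invertase IVR1 (GRMZM2G394450) from 2.69 ± 1.25 to 7.73 ± 0.978 (1.30 ± 0.24). The transporter and the synthase thus moved in opposite directions.

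Aquaporins and related channels were also split, with 2 of 20 called higher and 2 lower, against 3.33% and 3.42% of all genes. Lsi6 (GRMZM2G081239), a silicon channel of the leaf, was at 14.5, 23.5, 19.1 and 17 FPKM in section 3 and at 66.4, 75.6, 74.6, 73.2 and 60.4 in section 4 (1.88 ± 0.15, limma adjusted p = 7.81e-05). NIP2-2 (GRMZM2G137108), of the same subfamily, went from 39.2 ± 5.02 to 80.5 ± 9.96 FPKM (1.02 ± 0.13), and to 0.95 on the log2 scale without section 4 replicate 6. NIP1-1 (GRMZM2G041980) fell from 355 ± 57.7 to 117 ± 27.6 FPKM (-1.61 ± 0.19, limma adjusted p = 5.82e-04), and the tonoplast member TIP4-4 (GRMZM2G093090) from 4.74 ± 1.55 to 1.45 ± 0.334 (-1.19). With the replicate block TIP4-4 (limma adjusted p = 0.0526) and NIP2-2 were not called. The most abundant, the plasma membrane aquaporin PIP1-1 (GRMZM2G174807), was at 1729 ± 104 and 1195 ± 108 FPKM, a change of -0.54 (-0.85 after quantile normalization).

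Hormone genes moved gene by gene. In the auxin list of 34, whose median was -0.01, 3 were called lower and none higher, against 3.42% and 3.33% of all genes. The Aux/IAA genes AUX32 (GRMZM2G152796) and AUX22 (GRMZM2G130953), named for a family of auxin response repressors, fell from 8.79 ± 1.87 to 0.752 ± 0.322 FPKM (-2.48 ± 0.21, limma adjusted p = 9.84e-05) and from 10.8 ± 0.884 to 2.65 ± 0.965 (-1.72 ± 0.21, limma adjusted p = 5.88e-04). AUX35 (GRMZM2G167794), the most abundant of the list, was at 170.4 ± 19.1 and 179 ± 36.6 FPKM. The auxin efflux carrier PIN10a (GRMZM2G126260) went from 17.1 ± 1.32 to 7.31 ± 1.72 FPKM (-1.15), and by -0.99 without section 4 replicate 6. In the cytokinin list 2 of 24 were called higher, both response regulators, against 3.33% of all genes. Crr1 (GRMZM2G040736) rose from 1.62 ± 1.46 to 10.6 ± 1.98 FPKM (2.33 ± 0.37, limma adjusted p = 0.00259) and RR6 (GRMZM2G129954) from 9.82 ± 2.63 to 24.4 ± 2.31 (1.26 ± 0.17). RR7 (GRMZM2G096171), the most abundant, was at 29.6 ± 1.32 and 36.5 ± 5.29 FPKM.

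Of 10 gibberellin and brassinosteroid genes 1 was called lower, against 3.42% of all genes. This was DWF1 (GRMZM2G057000), an enzyme of brassinosteroid synthesis, which went from 24.9 ± 7.68 to 11.3 ± 3.43 FPKM (-1.09 ± 0.27, limma adjusted p = 0.0236). Its change was -0.88 both without section 4 replicate 6 and with the replicate block, under the size of a call. The DELLA gene D8 (GRMZM2G144744), a repressor of gibberellin responses, was at 64.4 ± 7.04 and 45.2 ± 6.78 FPKM. Jasmonate and lipoxygenase genes had 1 of 19 called higher and 2 lower, against 3.33% and 3.42% of all genes. Lox3 (GRMZM2G109130), a lipoxygenase, rose from 0.565 ± 0.256 to 6.29 ± 1.02 FPKM (2.22 ± 0.19, limma adjusted p = 9.78e-05). Aos1 (GRMZM2G067225), an allene oxide synthase of jasmonate synthesis, fell from 78.5 ± 9.97 to 30.8 ± 8.33 FPKM (-1.36 ± 0.22), and lox12 (GRMZM2G106748) from 20.0 ± 1.02 to 8.3 ± 0.627 (-1.18 ± 0.11). Lox10 (GRMZM2G015419), the most abundant lipoxygenase, went from 541 ± 79.9 to 1005 ± 176 FPKM, a change of 0.89.

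Among 10 light receptor and clock genes 3 were called higher, against 3.33% of all genes, and all 3 were at low levels. Nph1 (GRMZM2G001457), a phototropin, went from 4.92 ± 2.41 to 12.7 ± 4.41 FPKM (1.27 ± 0.36, limma adjusted p = 0.0408). PIF5 (GRMZM2G165042) and PIF4 (GRMZM5G865967), named for factors that act downstream of phytochrome, went from 2.15 ± 1.32 to 5.52 ± 1.42 FPKM (1.11) and from 0.101 ± 0.202 to 1.78 ± 1.18 (1.26). Without section 4 replicate 6 the adjusted p of limma was 0.081 for nph1 and 0.0572 for PIF5, and 1 of the 3 calls remained. With the replicate block nph1 was not called either (adjusted p of limma 0.0599), and after quantile normalization PIF4 was not (0.0882). Of the 18 alternatives, nph1 lost the call in 14, among them the lower pseudocount, no filter and upper quartile scaling, and PIF4 lost it in 7. COL8 (GRMZM2G114137), the most abundant, was at 55.7 ± 4.61 and 71.8 ± 5.32 FPKM.

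None of 18 tested leaf regulators was called, against 6.74% of all genes. The closest were GRF5 (GRMZM2G129147), a growth-regulating factor, at 1.55 ± 0.31 and 3.49 ± 0.645 FPKM (log2 change 0.82 ± 0.18, limma adjusted p = 0.0143), and G2-like1 (GRMZM2G026833), of the GOLDEN2-like factors that act in chloroplast development, at 43.4 ± 4.42 and 71.1 ± 2.82 (0.70 ± 0.10, limma adjusted p = 0.00152). G2-like1 was higher in every section 4 library than in every section 3 library. SCR (GRMZM2G131516), a scarecrow gene of bundle sheath and endodermis patterning, was at 9.09 ± 2.07 and 13.7 ± 2.35 FPKM (0.55 ± 0.17, limma adjusted p = 0.0567). GRF6 (GRMZM2G041223) was at 0.871 ± 0.306 and 2.03 ± 0.441 FPKM (0.70 ± 0.22), and YAB3 (GRMZM2G106204), of the YABBY family of leaf polarity, at 5.9 ± 1.3 and 3.67 ± 1.52 (-0.60 ± 0.25).

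The other leaf regulators changed by less. GLK13 (GRMZM2G087804) was at 15.3 ± 3.46 and 14.5 ± 1.53 FPKM, and GRMZM2G132794 at 3.27 ± 0.873 and 2.21 ± 0.502. The growth-regulating factors GRF1 (GRMZM2G178261), GRF4 (GRMZM2G004619), GRF8 (GRMZM2G033612), GRF10 (GRMZM2G096709) and GRF12 (GRMZM2G119359) changed by 0.30, 0.03, -0.03, -0.08 and 0.33. Nkd1 (GRMZM2G129261) and Nkd2 (GRMZM5G884137), zinc finger factors, changed by 0.22 and 0.16, the YABBY genes YAB11 (GRMZM2G141955) and YAB5 (GRMZM2G116646) by 0.36 and 0.25, and the homeobox genes knox6 (GRMZM2G370332) and knox7 (GRMZM2G433591) by 0.10 and 0.27.

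Lists of cell division, ribosomal proteins and heat shock proteins had no calls. None of 6 DNA replication genes, 8 cell cycle genes, 10 histones, 37 ribosomal protein genes or 22 heat shock genes was called. Of all tested genes 6.74% were called, and at that share the shorter of these lists can hold none. The list medians were 0.07, -0.15, -0.48, -0.24 and -0.26. By the adjusted p of limma alone, whatever the size of the change, 0, 1, 2, 6 and 2 of them passed. Without section 4 replicate 6 the medians of the cell cycle, ribosomal and heat shock lists were -0.06, -0.13 and -0.14. The DNA replication median was 0.14 without that library and -0.04 under quantile normalization. Of the 4 division markers 3 were at or under 4 FPKM in every library, PCNA (GRMZM2G030523) among them with 0 in 2 of the 9. The fourth, the histone gene H4C13 (GRMZM2G084195), was at 128, 267, 234 and 256 FPKM in section 3 and at 83.1, 123, 162, 115 and 76.6 in section 4, with overlapping sections. RNRS2 (GRMZM2G155546), a ribonucleotide reductase subunit, was at 7.97 ± 0.778 and 8.86 ± 1.21 FPKM, cycD2 (GRMZM2G075117), a D-type cyclin, at 14.5 ± 1.98 and 12.5 ± 3.51, and the linker histone his1a (GRMZM2G401308) at 164 ± 8.64 and 168 ± 20.3. Rpl19 (GRMZM2G171444), the most abundant ribosomal protein gene, was at 479.6 ± 43.1 and 667 ± 40.2 FPKM (0.48 ± 0.09, or 0.25 after quantile normalization), and hsp22 (GRMZM2G007729) at 1012 ± 21.5 and 665 ± 131 (-0.63 ± 0.15).

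No member was called among 12 benzoxazinoid genes, which make defence compounds of grass seedlings, against 6.74% of all genes. BX5 (GRMZM2G063756) was at 228 ± 6.6 and 341 ± 31.6 FPKM. Of 16 antioxidant genes 1 was called higher, against 3.33% of all genes. Cat2 (GRMZM2G090568), a catalase, was at 45.0, 46.0, 33.1 and 32.7 FPKM in section 3 and at 138, 132, 135, 141 and 143 in section 4 (1.80 ± 0.13, limma adjusted p = 4.87e-05). Its section 4 libraries, replicate 6 included, lay close together. The superoxide dismutase gene sod-1a (GRMZM2G106928) was at 451 ± 26.2 and 650.2 ± 30.4 FPKM, a log2 change of 0.53, or 0.33 after quantile normalization.

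Among the named genes with the widest changes, several belonged to no list. BURP4 (GRMZM5G800586), of the BURP-domain family of plant secreted proteins, was at 51.1, 61.8, 62.0 and 80.6 FPKM in section 3 and at 742, 914, 828, 873 and 484 in section 4 (3.55 ± 0.20, limma adjusted p = 1.90e-05). GB1 (GRMZM2G062531) rose from 6.58 ± 2.32 to 40.2 ± 4.82 FPKM (2.49 ± 0.21) and TIFY15 (GRMZM2G005954), of the family that includes the repressors of jasmonate signalling, from 12.3 ± 4.42 to 49.8 ± 12.0 (1.96 ± 0.23). PER66 (GRMZM2G133475), a peroxidase, rose from 10.1 ± 4.99 to 44.9 ± 10.7 FPKM (2.12 ± 0.31, limma adjusted p = 0.00178).

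AD1 (GRMZM2G167438) had the widest fall of the called genes with a name, from 29.5, 29.8, 31.7 and 32.8 FPKM to 1.5, 2.78, 2.36, 2.71 and 1.52 (-3.35 ± 0.17, limma adjusted p = 8.55e-06). Both sections were tight, and no library of one came near the other. Znod1 (GRMZM2G052562) fell from 925 ± 81.9 to 181 ± 47.7 FPKM (-2.39 ± 0.22) and was the most abundant of these genes in section 3. MYB109 (GRMZM2G052606), a MYB-type factor by name, fell from 10.8 ± 0.645 to 1.55 ± 1 FPKM (-2.29 ± 0.28), and psiP (GRMZM2G060659) from 33.9 ± 1.1 to 8.36 ± 1.93 (-1.92 ± 0.16).

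The levels of these genes in the neighbouring sections 2 and 6 are given as medians of 5 libraries, with no test. Most genes lay on a course that continued through both. Pep1 had a median of 150.2 FPKM in section 2 and 1218 in section 6, ME1 of 99.0 and 1282, and cab48 of 92.7 and 1047. In the other direction sus1 was at 1714 FPKM in section 2 and 69.2 in section 6, expB6 at 261 and 22.8, and AD1 at 83.2 and 0.582. For sus1 the 4 values from section 2 to section 6, with means in sections 3 and 4, were thus 1714, 789, 297 and 69.2 FPKM.

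Other genes peaked or dipped within this stretch. The rising Laccase-13 (GRMZM2G132169) was at 25.1 FPKM in section 2, 288 in section 3, 684 in section 4 and 57.0 in section 6. PER66 was listed at 0 in section 2 by its median and was at 8.99 FPKM in section 6, below its 44.9 in section 4. The wax genes gl4a and gl1 were at 4.15 and 15.8 FPKM in section 2 and at 386 and 406 in section 6, both under their section 4 means of 534 and 598. Lac1 (GRMZM2G146152) was at 41.7 FPKM in section 2, 72.6 in section 3, 13.3 in section 4 and 0.919 in section 6, and Bk2L7 at 72.1, 101, 24.6 and 2.35. Znod1 was at 761, 925, 181 and 31.7 FPKM in the same order. HDZIV14_OCL14 was lower in section 4, at 0.301 FPKM, than in section 2 (10.8) or section 6 (1.75).

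List means are given in the same way, with no test. The C4 list had a mean log2(FPKM + 1) of 7.03 ± 0.38 in section 3, 7.78 ± 0.28 in section 4 and 8.29 ± 0.10 in section 6 (SD, n = 4, 5 and 5). The secondary wall list was at 4.95 ± 0.15 in section 2, 6.08 ± 0.10 in section 3, 5.84 ± 0.35 in section 4 and 4.39 ± 0.06 in section 6, and the wall loosening list at 4.69 ± 0.18, 4.75 ± 0.07, 4.14 ± 0.27 and 3.35 ± 0.07 in the same order. Replicate 6 stood apart in both lists. Its C4 mean was 8.08 in section 2. With its shallow section 3 library left out, this was above all other libraries of sections 2, 3 and 4 except its own section 4 library at 8.25. Its secondary wall mean was 5.22 in section 4, against 5.93 to 6.04 in the other 4 libraries.

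**Figure D4:**
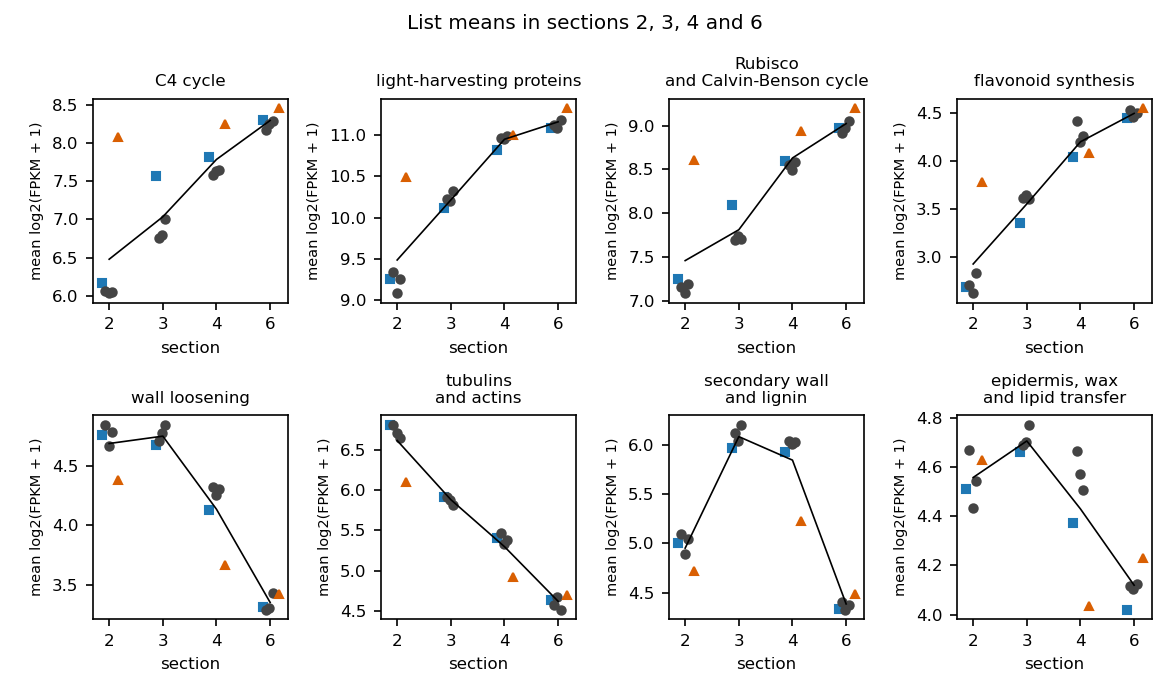
Mean log2(FPKM + 1) over the tested members of 8 gene lists in each library of sections 2, 3, 4 and 6, with the shallow library of section 3 left out; lines join section means, orange triangles are replicate 6, blue squares replicate 1 and grey circles the other replicates. The C4 mean goes from 7.03 to 7.78 between sections 3 and 4, the secondary wall mean is highest in section 3 (6.08), and replicate 6 sits apart in section 2 and section 4 in most panels.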

How the data were processed

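RNA was measured in 9 maize libraries, and the authors deposited FPKM values per gene. The tools named in the submitters' processing notes are Cuffdiff 2.1.1 and TopHat2 2.0.10, with B73 RefGen_v3 as the build, and per the labels' protocols the libraries were strand-specific and made after TRIzol extraction. The deposited FPKM keep no counts, so depth per sample is unknown in reads; relative depth was estimated from the steps of low values. How reads shared by near copies (tubulins, rbcS, light-harvesting genes, histones, C4ppdkZm1 with CYPPDKZM2) were divided is not given in the sources used here, and values of such genes are uncertain.

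Values were taken as log2(FPKM + 1), which understates changes of low genes, for genes with a mean of at least 1 FPKM. Sections were compared with limma 3.58.1 with a mean trend (R 4.3.3), two-sided, with Benjamini-Hochberg adjustment over the 23478 tested genes, and the test was checked on simulated data. Replicate numbers mark pools collected on different dates, per the labels; deviations of same-numbered libraries correlated at -0.01 to 0.06 across genes, and a fit with the number as a block was an alternative. P-values measure the spread between pools.

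Named genes were, in each list, the 2 called members with the widest change and the most abundant tested member; the 8 named genes that rose and the 8 that fell most at a mean of at least 5 FPKM with sections that do not overlap; and all tested members of the C4 and leaf regulator lists. Other members named in the text were chosen after their values were seen. The comparison, its members and the lists were chosen with earlier results of these data known. The lists were rebuilt by gene name after the files were read, since the reference table (Zm-B73-REFERENCE-NAM-5.0) gives no descriptions; RNRL1, TUA1 and PHYC were not found in it, BZ1 was respelled after its value was seen, and lists for stomata and photorespiration were dropped. Of the tested genes 13302 had an entry and 1810 a name. Coordinates are not printed because that build is not the one of the files, and the planned promoter search was not run. Alternatives changed the pseudocount, filter, scaling and libraries. One of the 6 replicates the design text names was not analysed here.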

Additional observations from a re-analysis of the deposited data

Results flagged for a closer look

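Of 204 groups of 4 or 5 libraries, one for each named gene in each section, 32 held a library whose gap to the nearest other was wide for the range of its group by Dixon's criterion; chance alone flags about 1 in 20 groups. Replicate 6 of section 4 accounted for 21 of the 32, 14 as the lowest library and 7 as the highest, and replicate 1 of section 3 for 8.

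Section 4 replicate 6 was the lowest for hsp22 (438 FPKM, against 687 to 762 in the other section 4 libraries), znod1 (98.9), DWF1 (5.66), RGP (34), PAL1 (496, against 868 to 1022), PER66 (25.8), Lac1 (7.46), GRMZM2G146677 (6.75), exg1 (324), sus1 (144, against 312 to 349), AUX35 (114), PIP1-1 (1006), expB6 (43.0) and gln1-3 (213). It was the highest for pDCT2 (314), GRMZM2G094165 (599), GRMZM2G121878 (4030.3, against 2535 to 2755), GRMZM2G138258 (685), GRMZM2G162529 (715), GRMZM2G348512 (709.96, against 375 to 433) and pOMT1 (540.0).

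Section 3 replicate 1 was the highest for pep1 (596 FPKM, against 383 to 394 in the other section 3 libraries), ME1 (507, against 247 to 255), LTP3 (54.0), C4ppdkZm1 (3968) and GRMZM2G348512 (298), and the lowest for GRF8 (1.15), znod1 (804) and TAB2 (231). Section 4 replicate 1 was the lowest for GRMZM2G094712 (12.1) and CCR (283), and section 3 replicate 2 the highest for PIF4 (0.403, with 0 in the others).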

How the results depend on the processing

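The counts of genes called kept within 1.5 times of 781 higher and 802 lower under the pseudocount, filter, scaling and block alternatives. They moved in 2 settings. With the shallow section 3 replicate 6 included, whose profile was closest to section 8, 234 were called higher and 136 lower. With all maize libraries in one fit, which adds that library and also takes the spread from all 15 sections, 420 and 177 were called, and the cause was not tested. Leaving out each library in turn gave 618 to 820 higher and 650 to 795 lower, of which 587 to 672 and 627 to 730 were among the genes called with all 9. With the replicate block, 764 were called higher and 590 lower (623 and 568 shared). The calls of CesA12, GRMZM5G814718, LAC1, gl15, EREB46, expB3, PIN10a and CYPPDKZM2, lost without section 4 replicate 6, were lost with the block too, where that library has no partner in section 3 and does not enter the difference. Without both section 3 replicate 1 and section 4 replicate 6, a choice made after seeing the data, 878 and 657 were called. Of the 48 called named genes, 8 were tested and called in each of 18 alternatives, and asn2 and lox3 in each but the filter at 5 FPKM, which left them out. Another 31 lost the call only with section 3 replicate 6 included or in the fit of all maize libraries, and 7 lost it elsewhere. The auxin list median of -0.01 was above 0 with upper quartile scaling and without section 4 replicate 6, and no other list median but that of DNA replication changed sign under those or quantile normalization. FPKM give no counting error, so low genes such as PIF4 and asn2 are the least certain.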

Other observations

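The genes below were chosen after their values were seen. Of 20 tested TIFY genes, the family that includes the repressors of jasmonate signalling, 5 were called higher and none lower, against 3.33% and 3.42% of all genes, and 19 had positive log2 changes (median 0.71). Besides TIFY15 these were TIFY28 (GRMZM2G036351), from 2.06 ± 0.858 to 9.77 ± 1.53 FPKM (log2 change 1.84), TIFY20 (GRMZM2G173596), TIFY2 (GRMZM5G838098) and TIFY4 (GRMZM2G445634). TIFY20 was not called with the replicate block (limma adjusted p = 0.0573), and TIFY4 not after quantile normalization (log2 change 0.98). Genes of the bHLH family had 2 of 25 called higher and 4 lower, against the same shares of all genes. These counts were 1 and 3 without section 4 replicate 6 and 0 and 2 with the replicate block.

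Go1 (GRMZM2G129246), named for glycolate oxidase, an enzyme of photorespiration, rose from 162 ± 6.46 to 373 ± 18.1 FPKM (1.2 ± 0.08, limma adjusted p = 4.08e-05), with replicate 6 at 344. Pdrp1 (GRMZM2G131286), the regulatory protein of pyruvate phosphate dikinase, rose from 46.2 ± 6.45 to 119 ± 20.8 FPKM (1.34), and PPCK1 (GRMZM2G178074), named as a PEP carboxylase kinase, from 2.24 ± 0.454 to 5.78 ± 0.78 (1.07). In the other direction ZHD13 (GRMZM2G071112), a zinc finger homeodomain factor, fell from 7.15 ± 2.03 to 0.253 ± 0.28 FPKM (-2.69 ± 0.25, limma adjusted p = 1.96e-04). MYB63 (GRMZM2G017268) fell from 179 ± 23.6 to 88.9 ± 23.8 FPKM (-1.04), and its change was -0.85 without section 4 replicate 6, under the size of a call.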
